A study of Mus musculus with 12 samples.

Results

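The 33 genes described here encode enzymes, transporters and a regulator of mitochondrial and peroxisomal fatty acid oxidation, and were chosen by gene symbol from a count table of 25611 genes of mouse liver. All 33 were in the table and all 33 passed the filter on low counts, which left 13190 genes. They comprise 16 mitochondrial members, 11 peroxisomal members, 5 members found in both organelles or of unclear place (Acsl1, Acad11, Eci2, Crat and Amacr), and the regulator Ppara.

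Livers came from 12 male C57BL6J mice, with 4 in each of 3 groups. Sham mice had the sham surgical procedure, CLP mice had cecal ligation and puncture, a surgical model of abdominal sepsis, and CLP+DCA mice had the same operation and were given dichloroacetate, an inhibitor of the pyruvate dehydrogenase kinases. All groups were injected 24 hr after surgery and livers were taken 6 hr later, at 30 hr; the labels do not name what the sham and CLP mice received, and give no age. The samples were whole livers at 1 time point, so that fewer cells of a type and less RNA per cell cannot be told apart. No group was given dichloroacetate without CLP.

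Fatty acids are joined to CoA before they are oxidized. In mitochondria, the carnitine shuttle brings long chains through the membranes, and dehydrogenases, hydratases and thiolases then shorten them, with electrons passed on through the electron transfer flavoprotein. Peroxisomes shorten very long, branched and bile acid chains with oxidases that make hydrogen peroxide, and hand shortened chains on as carnitine esters. In the liver, genes of both pathways are targets of the nuclear receptor PPARα, which fatty acids activate.

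Sequences are shown for the near-identical pair of peroxisomal thiolases, of which Acaa1b had the widest range among the members. The thiolases Acaa1a (chr9:119341294-119350295, plus strand) and Acaa1b (chr9:119148043-119157093, minus strand; coordinates are on mm10) cleave the chain at the end of each round. Their coding sequences were 1272 bases long in each and matched at 1228, or 96.5%. The 150 coding bases with the most differences, from base 453 to base 602 counted from the start codon, are shown from the GENCODE transcripts, with the 16 differing bases of the 44 in the whole coding sequence in capitals.
Acaa1a: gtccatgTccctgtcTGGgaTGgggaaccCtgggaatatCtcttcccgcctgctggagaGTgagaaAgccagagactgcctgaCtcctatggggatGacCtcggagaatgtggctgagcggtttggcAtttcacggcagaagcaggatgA
Acaa1b: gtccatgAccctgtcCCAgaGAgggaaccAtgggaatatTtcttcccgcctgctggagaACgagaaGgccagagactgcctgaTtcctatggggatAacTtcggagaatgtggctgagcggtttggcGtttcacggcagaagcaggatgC
Of the 1663 100-base windows of its transcript, Acaa1a shared 360 (21.6%) with Acaa1b. Of its 1590 windows, Acaa1b shared 485 (30.5%) with another gene, of which 360 were with Acaa1a. A part of the reads of these thiolases could thus be assigned to either. Upstream of their starts the genes shared little. In an alignment of the 250 bases before each start, 105 of 259 columns (40.5%) were identical.

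These upstream stretches are shown from RefSeq (GRCm38.p6) beside that of Hadhb, with each GGGCGG, searched on both strands, in capitals. The windows are chr9:119341044-119341293 on the plus strand for Acaa1a, chr9:119157094-119157343 on the minus strand for Acaa1b and chr5:30155003-30155252 on the plus strand for Hadhb.
Acaa1a: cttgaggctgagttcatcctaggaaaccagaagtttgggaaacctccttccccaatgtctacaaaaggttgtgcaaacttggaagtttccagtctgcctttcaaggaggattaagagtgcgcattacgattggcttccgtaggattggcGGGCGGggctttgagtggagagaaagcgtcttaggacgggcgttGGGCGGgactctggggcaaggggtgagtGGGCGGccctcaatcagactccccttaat
Acaa1b: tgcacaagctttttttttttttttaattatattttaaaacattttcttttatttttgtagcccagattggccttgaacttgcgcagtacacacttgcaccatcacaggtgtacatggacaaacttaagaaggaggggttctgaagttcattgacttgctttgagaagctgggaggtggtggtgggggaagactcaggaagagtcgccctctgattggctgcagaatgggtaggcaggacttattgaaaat
Hadhb: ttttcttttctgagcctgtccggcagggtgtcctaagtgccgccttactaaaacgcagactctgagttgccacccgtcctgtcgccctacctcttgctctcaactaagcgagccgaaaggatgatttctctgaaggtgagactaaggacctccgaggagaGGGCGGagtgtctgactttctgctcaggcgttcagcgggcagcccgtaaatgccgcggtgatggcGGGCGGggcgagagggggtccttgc
GGGCGG was found 3 times in the Acaa1a window, 0 times in that of Acaa1b and 2 times in that of Hadhb, and 32.7% of all mouse promoter windows of this length held it. Hadhb is shown because it shares this stretch with Hadha, the gene of the other subunit of its enzyme. The genes run in opposite directions from starts that are 272 bases apart. CCAAT, on either strand, was found 3 times for Acaa1a, 2 times for Acaa1b and 0 times for Hadhb, against 33.8% of promoter windows that held it.

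Of the 33 members, 28 had a promoter entry, and Abcd3, Acsl1 and Acox2 had a further window. The direct repeat of AGGTCA with any 1 base between its copies is a form of the site PPARα binds. It was found for 0 of 28 members on either strand (0.0335% of all 32851 windows). The looser repeat of AGGNCA with the same spacing was also found for 0 of 28 (0.338% of all windows). Only the 250 bases before each start were searched. Both repeats are so rare in these windows that 0 of 28 would be usual for any genes. These counts therefore do not show whether the members have sites for PPARα. A lone AGGTCA, which the exact repeat also holds, was found for 4 of 28 members (14.3%), against 14% of all windows. The shares of all are per window and not per gene. The 4 were Acadm, Echs1, Acadvl and Cpt1a, all mitochondrial.

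Between 24436513 and 44266819 reads per mouse were counted, and no member had fewer than 417 reads in a mouse. Values are CPM, the reads of a gene scaled to a common library size after TMM normalization, and are given in the order of replicates 1 to 4. Mice of a group were not alike. On the main axis of a principal component analysis, CLP+DCA replicate 3 lay at 82.6 against -28.9 to -16.4 for the other CLP+DCA mice, while the CLP mice lay at 10.4, 72.8, 8.66 and 46.3. Acute phase proteins took 11.2% to 12.8% of reads in sham, 24.7%, 35.9%, 21.0% and 33.1% in CLP, and 16.6%, 19.6%, 35.1% and 15.2% in CLP+DCA. All 11 hepatocyte markers found in the table passed the filter, and their summed level was 64152 to 86605 CPM in sham, 35896 to 48293 CPM in CLP and 32367 to 59364 CPM in CLP+DCA. In CLP versus sham their median log2 fold change was -0.33, with 8 of 11 lower and 3 higher, of which 1 that was lower passed the FDR of 0.05 used for all genes. The sum, unlike the median, weighs abundant markers most. By highest count these were Alb, at 320064 to 2137713 reads per mouse, and then Apob, at 144191 to 339476. Neutrophil markers summed to 6.46 to 9.30 CPM in sham, 32.2 to 46.2 CPM in CLP and 6.77 to 61.4 CPM in CLP+DCA. The part of cell makeup and of the acute phase response in the values of the members was not tested.

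Per kilobase of transcript, sham levels ranged more widely among peroxisomal than among mitochondrial members. The most abundant member was Phyh, which starts the α-oxidation of phytanic acid, at 1126 ± 22.2 CPM per kb (SD, n = 4), followed by the mitochondrial thiolase Acaa2 at 498 ± 60.4 CPM per kb. The lowest were Pex11a, a membrane protein of dividing peroxisomes, at 10.8 ± 3.49 CPM per kb and Crat at 10.5 ± 3.21 CPM per kb. These lowest levels differed by less than their spread. Mitochondrial members lay between Acaa2 and Hadhb, at 55.4 ± 4.78 CPM per kb.

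Does sepsis change the expression of fatty acid oxidation genes? In CLP versus sham, Crat rose and no other member passed an FDR of 0.05 in edgeR's quasi-likelihood test (1 of 33, against 2.78% of all genes tested, or 1.64% that were called higher). At an unadjusted p under 0.05 were 7 members (21.2%), against 28.6% of all genes. Of these, 4 were higher (15.5% of all genes) and 3 lower (13.1% of all genes). The groups did not overlap for 2 members that were higher (12.2% of all genes) and 5 that were lower (14.2% of all genes). By p and by overlap, these shares were below those of all genes, except for the members lower without overlap, which came to 15.2%. The median log2 fold change was -0.05 over the mitochondrial members, -0.02 over the peroxisomal members and 0.02 over all genes, and the signs for both organelles changed with the scaling. Summed CPM was 4224 ± 462 in sham and 3908 ± 546 in CLP over mitochondrial members (mean and SD, n = 4). Over peroxisomal members it was 4489 ± 406 and 3663 ± 612. These sums weigh abundant members such as Phyh most, overlapped between the groups and were not tested.

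**Figure D1:**
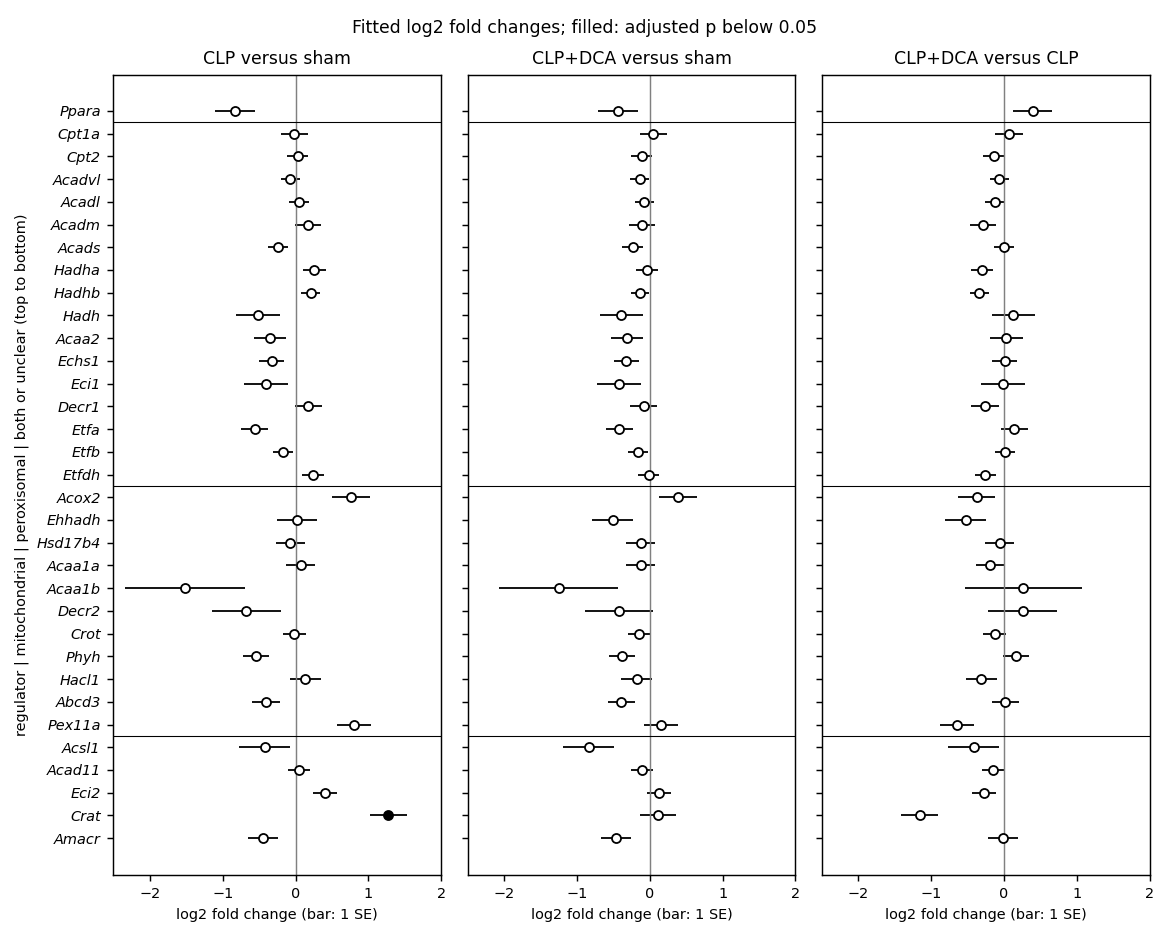
Fitted log2 fold changes (x axis) of the 33 members, ordered from the regulator through mitochondrial and peroxisomal members to those of both or unclear place, in the 3 comparisons; bars are 1 SE and filled points passed an FDR of 0.05. Crat in CLP versus sham, at 1.27, is the only filled point.

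Crat (chr2:30400476-30415748) encodes carnitine acetyltransferase, which moves acetyl groups between CoA and carnitine in both organelles. Its expression was 28.6, 58.9, 51.6 and 37.9 CPM in the sham mice, 92.1, 112, 113 and 111 CPM in the CLP mice and 38.8, 43.8, 73.1 and 35.9 CPM in the CLP+DCA mice. Each CLP mouse was above each sham and each CLP+DCA mouse. The difference from sham was past the FDR (log2 fold change 1.27, SE 0.25, adjusted p = 0.0355, edgeR). Without any 1 of the 4 sham mice, or without CLP replicate 1, 2 or 4 or CLP+DCA replicate 2, its adjusted p was 0.0547 to 0.107, with a log2 fold change of 1.11 to 1.44. These fits called 0.0749% to 1.06% of all genes, against 2.78% with all mice, so that the loss of the call was not particular to Crat. Without CLP+DCA replicate 3, whose group is no part of this comparison but shares the estimate of spread, adjusted p was 0.00268.

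**Figure D2:**
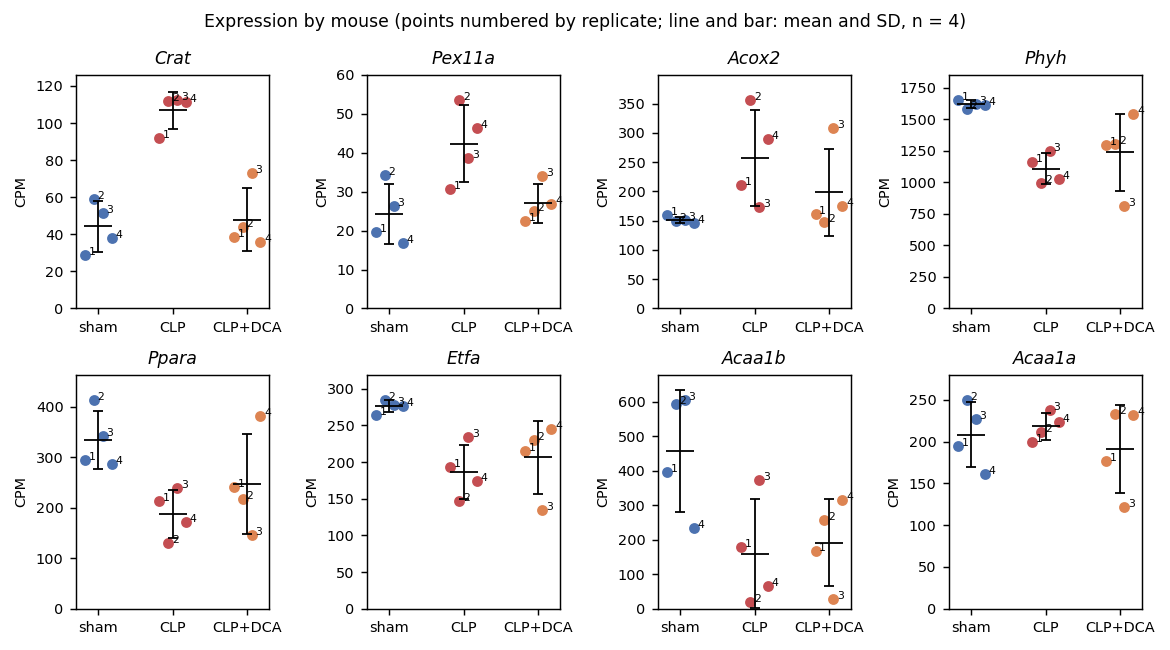
CPM (y axis, from 0) of 8 members in each mouse, with points numbered by replicate and the line and bar giving the mean and SD of 4 mice. For Crat the CLP mice lie at 92.1 to 113 CPM, above all other mice, while Acaa1b spreads from 20.0 to 374 CPM among CLP mice.

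The next smallest p-values in this comparison were those of Pex11a, Phyh, Ppara, Etfa and Acox2, whose adjusted p lay between 0.0722 and 0.0909. In 1 of these, Acox2 (chr14:8225511-8259019), the oxidase of branched and bile acid chains, CLP mice were all higher than sham mice. It was measured at 159, 150.2, 152 and 146 CPM in the sham mice, 210.4, 357, 173 and 289.7 CPM in the CLP mice and 162, 149, 308 and 176 CPM in the CLP+DCA mice. The sham mice were within 146 to 159 CPM of each other, while CLP replicates 2 and 4 and CLP+DCA replicate 3 were highest (log2 fold change 0.76, SE 0.26, adjusted p = 0.0909 for CLP versus sham). Pex11a (chr7:79737264-79743025) was at 19.6, 34.3, 26.4 and 16.8 CPM in the sham mice, 30.7, 53.7, 38.6 and 46.5 CPM in the CLP mice and 22.4, 24.9, 34.0 and 26.8 CPM in the CLP+DCA mice. Only sham replicate 2 overlapped the CLP mice (log2 fold change 0.80, SE 0.23, adjusted p = 0.0722).

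Phyh (chr2:4918996-4938743) was counted at 1658, 1579.7, 1622 and 1618 CPM in the sham mice, 1163, 995, 1254 and 1024 CPM in the CLP mice and 1297, 1309, 811 and 1540.4 CPM in the CLP+DCA mice. The CLP mice were all below the sham mice, which hardly varied (log2 fold change -0.55, SE 0.18, adjusted p = 0.0851). Ppara (chr15:85735564-85806851) was at 294, 413, 341 and 287 CPM in the sham mice, 212, 129.7, 238 and 171 CPM in the CLP mice and 241, 217, 147 and 382 CPM in the CLP+DCA mice. Its CLP mice did not overlap the sham mice either (log2 fold change -0.83, SE 0.27, adjusted p = 0.0869), and CLP+DCA replicate 4 was within the sham range.

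Electron transfer members differed in the sign of their fold changes. Etfa (chr9:55454436-55512243), the alpha subunit of the electron transfer flavoprotein, was at 265, 285, 278 and 276 CPM in the sham mice, 193, 147, 235 and 174 CPM in the CLP mice and 216, 231, 135 and 245 CPM in the CLP+DCA mice. No CLP or CLP+DCA mouse reached the lowest sham mouse (log2 fold change -0.56, SE 0.19, adjusted p = 0.0893 for CLP versus sham). Etfb, the partner subunit in the same dimer, had a log2 fold change of -0.18 (SE 0.14) and Etfdh, which passes the electrons to ubiquinone, of 0.24 (SE 0.15). Of the 100-base windows of Etfb, 65.2% also occurred in another GENCODE gene model. A part of the reads of Etfb is uncertain if the annotation used for counting, which is not given, held that model.

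The number of members called differed with the mice that entered the fit. Without CLP+DCA replicate 3, 8 members passed the FDR in CLP versus sham, against 23.8% of all genes: Crat, Pex11a and Acox2 were higher, and Ppara, Phyh, Etfa, Amacr and Echs1 were lower. The log2 fold changes hardly moved (Ppara: log2 fold change -0.83, SE 0.22, adjusted p = 0.0220, edgeR). DESeq2 on the 8 mice of this comparison called those 8 and Abcd3, with 23.3% of all genes called.

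Along the mitochondrial pathway, members were close to sham at the entry of long chains. Cpt1a (chr19:3323301-3385733), the enzyme of the outer membrane where entry is controlled, was at 347, 432, 349 and 384 CPM in the sham mice, 387, 331, 416 and 358 CPM in the CLP mice and 345, 367, 287 and 565 CPM in the CLP+DCA mice. The groups overlapped, with CLP+DCA replicate 3 lowest and CLP+DCA replicate 4 highest of the 12 mice (log2 fold change -0.02, SE 0.19, adjusted p = 0.956 for CLP versus sham), and the sign of this value changed with the scaling. Cpt2, on the inner membrane, had a log2 fold change of 0.03 (SE 0.14). The acyl-CoA dehydrogenases, named after chain length from very long to short, had log2 fold changes of -0.08 (Acadvl), 0.05 (Acadl), 0.18 (Acadm) and -0.24 (Acads), with SE of 0.13 to 0.18.

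The trifunctional protein carries out the later steps for long chains. Hadha (chr5:30118304-30154980), its alpha subunit, was at 232, 305, 273 and 253 CPM in the sham mice, 279, 311, 345 and 336 CPM in the CLP mice and 214, 217, 328 and 273 CPM in the CLP+DCA mice. Hadhb (chr5:30155253-30184593), its beta subunit, was at 103, 126, 115 and 109.6 CPM in the sham mice, 114, 128, 150.5 and 131 CPM in the CLP mice and 87.2, 90.6, 119.6 and 116 CPM in the CLP+DCA mice. In both genes, the lowest CLP+DCA values were in replicates 1 and 2. In CLP versus sham the fold changes of the subunits were alike in sign and size (log2 0.26, SE 0.15 and 0.21, SE 0.13), and neither passed the FDR (adjusted p = 0.274 and 0.295). For Hadhb, 52.8% of 100-base windows recur in another GENCODE gene model, while for Hadha 0% did. The level of Hadhb is the less certain if the annotation used for counting, which is not given, held that model.

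The enzymes that do these steps for shorter chains had negative log2 fold changes. By log2 fold change, Echs1, the short-chain hydratase, was at -0.33 (SE 0.18), Hadh, the short-chain dehydrogenase, at -0.52 (SE 0.30) and Acaa2, the thiolase, at -0.35 (SE 0.22), with adjusted p of 0.231, 0.261 and 0.298. Their CLP levels were lowest in replicate 2. Hadh, singled out after its values were seen, had 229, 127, 297 and 188 CPM in CLP against 282, 344, 319 and 259.7 CPM in sham. In CLP+DCA it had 254, 261, 111 and 294 CPM, with replicate 3 lowest of all 12 mice.

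Peroxisomal members were set further apart from each other than mitochondrial members. The median size of the log2 fold change in CLP versus sham, without its sign, was 0.41 over peroxisomal members, 0.22 over mitochondrial members and 0.25 over all genes, and the log2 fold changes ran from -1.52 (Acaa1b) to 0.80 (Pex11a) against -0.56 (Etfa) to 0.26 (Hadha). The highest log2 CPM of a CLP mouse exceeded the lowest by a median of 0.78 over peroxisomal members, 0.45 over mitochondrial members and 0.48 over all genes. No test was made of these differences between the lists.

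**Figure D3:**
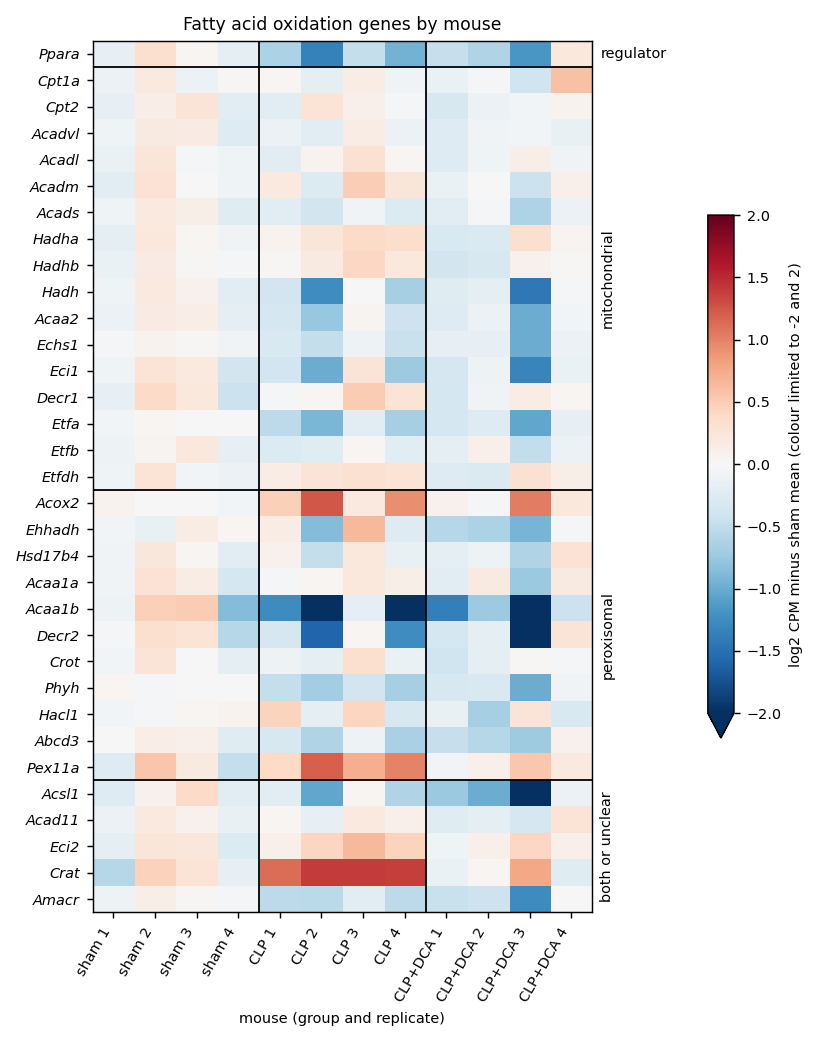
Difference of log2 CPM from the sham mean (colour, from -2 to 2, with lower values in the darkest blue) for the 33 members (rows) in the 12 mice (columns). Acaa1b and Decr2 are blue in CLP replicates 2 and 4 and darkest in CLP+DCA replicate 3 or CLP replicate 2, while the 4 CLP mice are red for Crat.

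Acaa1b, singled out after its values were seen, was the member with the widest range. It was at 397, 593, 606 and 235 CPM in the sham mice, 179, 20.0, 374 and 65.8 CPM in the CLP mice and 166, 258, 27.3 and 316 CPM in the CLP+DCA mice. CLP replicate 2 was 22.9-fold and CLP replicate 4 was 6.96-fold below the sham mean, while CLP replicate 3 was within the sham range. In CLP+DCA, replicate 3 was 16.8-fold below it, and the other mice were 1.45-fold to 2.75-fold below. The comparison with sham did not pass the FDR (log2 fold change -1.52, SE 0.82, adjusted p = 0.236), nor did it without CLP replicate 3 (log2 fold change -2.37, SE 0.85, adjusted p = 0.0956, edgeR).

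Acaa1a, also singled out after its values were seen, was at 194, 249.8, 227 and 161 CPM in the sham mice, 199.99, 212, 238 and 223 CPM in the CLP mice and 177, 233, 122 and 231 CPM in the CLP+DCA mice. Its CLP mice were all within the sham range (log2 fold change 0.07, SE 0.20, adjusted p = 0.837). Of the CPM of both thiolases, Acaa1b made up 59.4% to 72.7% in sham, 47.3%, 8.62%, 61.2% and 22.8% in CLP, and 48.4%, 52.6%, 18.2% and 57.8% in CLP+DCA. The mice with the lowest shares, CLP replicates 2 and 4 and CLP+DCA replicate 3, were also those with the highest shares of acute phase reads, whose part in this result was not tested.

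Ehhadh (chr16:21761285-21787834), the bifunctional protein for straight chains, was at 137, 128, 158 and 146 CPM in the sham mice, 158, 77.6, 223 and 119 CPM in the CLP mice and 95.3, 91.7, 74.4 and 139 CPM in the CLP+DCA mice. CLP mice lay on both sides of sham (log2 fold change 0.02, SE 0.28 for CLP versus sham). Replicates 2 and 4 were below the lowest sham mouse, replicate 3 was above the highest and replicate 1 was level with the highest. Hsd17b4, the bifunctional protein for branched chains, had a log2 fold change of -0.07 (SE 0.20). Crot, which makes carnitine esters of shortened chains, had a log2 fold change of -0.02 (SE 0.16), and Hacl1, which cleaves the product of Phyh, had 0.13 (SE 0.21). Of the 100-base windows of Hacl1, 52.7% also occurred in another GENCODE gene model. The level of Hacl1 is uncertain if the annotation used for counting, which is not given, held that model.

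Abcd3 (chr3:121758904-121815302), a transporter of fatty acyl-CoA through the peroxisomal membrane, was at 408, 447, 437 and 342 CPM in the sham mice, 325, 269, 379.7 and 258 CPM in the CLP mice and 294, 275, 247 and 431 CPM in the CLP+DCA mice. CLP replicates 2 and 4 and CLP+DCA replicates 1 to 3 were lowest (log2 fold change -0.41, SE 0.19, adjusted p = 0.180 for CLP versus sham). Amacr (chr15:10981756-10996624), the racemase that readies branched chains for peroxisomal oxidation, was at 140.4, 164, 152 and 147 CPM in the sham mice, 105, 103, 129 and 105 CPM in the CLP mice and 111, 113, 63.3 and 151 CPM in the CLP+DCA mice. Its CLP mice were all below sham (log2 fold change -0.44, SE 0.20, adjusted p = 0.175). Acsl1 (chr8:46471037-46536051), which joins long chains to CoA, was at 579.9, 736, 911 and 601 CPM in the sham mice, 597, 337, 716 and 458 CPM in the CLP mice and 415, 351, 173 and 639.7 CPM in the CLP+DCA mice. CLP replicates 2 and 4 and CLP+DCA replicates 1 to 3 were below all other mice (log2 fold change -0.42, SE 0.35, adjusted p = 0.418 for CLP versus sham).

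Do peroxisomal enzymes differ from mitochondrial enzymes of a like reaction? Ratios within a mouse do not depend on the scaling of its library, and no test was made of them. Decr2 and Decr1, the peroxisomal and mitochondrial dienoyl-CoA reductases for unsaturated chains, had log2 ratios of 0.06, -0.12, -0.01 and -0.22 for sham mice, -0.37, -1.70, -0.54 and -1.59 for CLP mice and -0.06, -0.18, -2.45 and 0.15 for CLP+DCA mice. Every CLP mouse was below every sham mouse, with replicates 2 and 4 furthest, and among CLP+DCA mice replicate 3 was. The mean was -0.07 ± 0.12 in sham and -1.05 ± 0.69 in CLP (SD, n = 4).

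Eci2 over Eci1, isomerases for unsaturated chains of which Eci2 is found in both organelles, went the other way. The log2 ratio was 0.999, 1.08, 1.14 and 1.20 for sham mice, 1.59, 2.53, 1.499 and 2.28 for CLP mice and 1.36, 1.31, 2.85 and 1.35 for CLP+DCA mice. Every CLP and CLP+DCA mouse was above every sham mouse. By log2 fold change of each gene, Eci2 was at 0.40 (SE 0.17) and Eci1 at -0.40 (SE 0.30) in CLP versus sham, neither past the FDR.

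For thiolases, the log2 ratio of Acaa1a over Acaa2 was -1.83, -1.76, -1.86 and -2.04 in sham and -1.55, -1.06, -1.72 and -1.33 in CLP, with no overlap, and -1.83, -1.58, -1.63 and -1.65 in CLP+DCA. Acaa1b over Acaa2 was not among the ratios chosen. The means for Ehhadh over Hadha, bifunctional and trifunctional protein, were -0.90 ± 0.23 for sham mice, -1.24 ± 0.63 for CLP mice and -1.38 ± 0.52 for CLP+DCA mice. Those for the carnitine acyltransferases Crot over Cpt2 were 2.17 ± 0.18, 2.12 ± 0.30 and 2.13 ± 0.08. Both sets overlapped between groups. Across the pairs as chosen, the ratios were not shifted in a common direction, but this depends on the choice. The pairs that were higher in CLP rest on Eci2, found in both organelles, and on Acaa1a, the less abundant peroxisomal thiolase in sham. By log2 fold change in CLP versus sham, Acaa1b was at -1.52 (SE 0.82), below Acaa2 at -0.35 (SE 0.22).

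**Figure D4:**
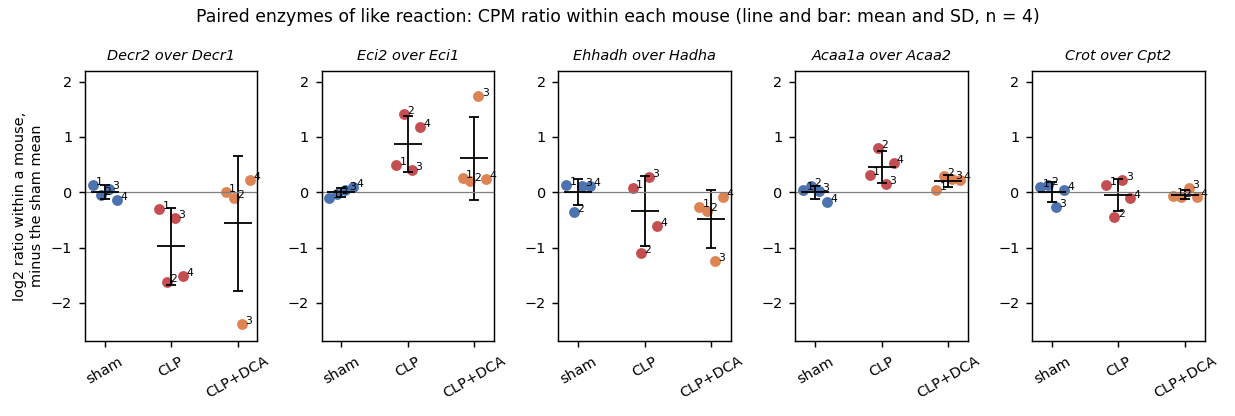
Log2 ratio of CPM of paired enzymes within each mouse, less the sham mean (y axis), with points numbered by replicate and the line and bar giving the mean and SD of 4 mice. Decr2 over Decr1 lies lower and Eci2 over Eci1 lies higher in all CLP mice than in sham, and CLP+DCA replicate 3 is the extreme point of both.

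Were the genes at another level after dichloroacetate? CLP+DCA mice are compared with sham and with CLP by the same mice, so that these comparisons are not independent of that of CLP versus sham. In CLP+DCA versus CLP, 0 of 33 members passed the FDR (0.00758% of all genes), by edgeR, and 3 had an unadjusted p under 0.05, all lower in CLP+DCA (4.94% of all genes were lower at this p). DESeq2 on the 8 mice, or on all 12 mice, called 1 member, Crat, against 0.604% and 0.815% of all genes, and voom with sample quality weights called 5, against 10.2% of all genes. The 3 were Crat (log2 fold change -1.16, SE 0.25, adjusted p = 0.178), Pex11a (log2 fold change -0.65, SE 0.23, adjusted p = 0.412) and Hadhb (log2 fold change -0.34, SE 0.13, adjusted p = 0.422). Crat was also the only member whose CLP+DCA and CLP mice did not overlap (2.05% of all genes were lower without overlap).

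The level of Crat in CLP+DCA replicate 3, 73.1 CPM, was the highest of its group. Without this mouse Crat passed the FDR in CLP+DCA versus CLP (log2 fold change -1.44, SE 0.21, adjusted p = 0.0116, edgeR), against 4.64% of all genes called. Hadha and Ehhadh were next in order of p (log2 fold change -0.30, SE 0.15, adjusted p = 0.541 and log2 fold change -0.53, SE 0.28, adjusted p = 0.552). Etfdh was at 168, 216, 172 and 165 CPM in the sham mice, 199, 214, 221 and 216 CPM in the CLP mice and 149, 146, 222 and 194 CPM in the CLP+DCA mice, with CLP+DCA replicates 1 and 2 lowest of all mice (log2 fold change -0.26, SE 0.15, adjusted p = 0.588). In all, 21 of 33 members were lower in CLP+DCA than in CLP, as were 6388 of 13190 genes tested. The median log2 fold change was -0.04 over mitochondrial members, -0.13 over peroxisomal members and 0.01 over all genes. The mitochondrial median changed sign, to 0.05 by library size alone, 0.04 without CLP replicate 3 and 0.01 without CLP+DCA replicate 3. The peroxisomal median was -0.05 without CLP+DCA replicate 1, -0.03 without CLP+DCA replicate 3 and -0.00076 without CLP replicate 3. Ppara had a log2 fold change of 0.39 (SE 0.27, adjusted p = 0.662).

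In CLP+DCA versus sham, 0 of 33 members passed the FDR by edgeR (0.0379% of all genes). The count was also 0 by DESeq2 on the 8 mice (1.20% of all genes), DESeq2 on all 12 mice (1.83%) and voom (3.76%). At an unadjusted p under 0.05 by edgeR were 3 members, all lower (4.85% of all genes were lower at this p). They were Acsl1 (log2 fold change -0.84, SE 0.35, adjusted p = 0.347), Amacr (log2 fold change -0.46, SE 0.20, adjusted p = 0.377) and Etfa (log2 fold change -0.42, SE 0.19, adjusted p = 0.377), followed by Phyh (log2 fold change -0.39, SE 0.18), Abcd3 (log2 fold change -0.39, SE 0.19) and Ehhadh (log2 fold change -0.51, SE 0.28). Without CLP+DCA replicate 3, the lowest of the 12 mice for each of these 6, the values were smaller in size, as for Amacr (log2 fold change -0.27, SE 0.13, adjusted p = 0.544) and Etfa (log2 fold change -0.26, SE 0.14, adjusted p = 0.608).

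Small negative values were common to the list in this comparison. Of 33 members, 28 were lower in CLP+DCA than in sham, as were 6310 of 13190 genes tested. Members share the scaling of a library, so that their signs are not independent. The median log2 fold change was -0.14 over mitochondrial members and -0.18 over peroxisomal members, while that of all genes was 0.01. The medians ranged from -0.21 to -0.02 and from -0.30 to -0.05 under the other scalings and tests. Groups did not overlap for 3 members, all lower in CLP+DCA (4.97% of all genes), namely Etfa, Phyh and Echs1. The log2 fold change of Ppara was -0.44 (SE 0.27, adjusted p = 0.490) and that of Cpt1a 0.05 (SE 0.19). For Ppara, leaving out CLP+DCA replicate 3 gave log2 fold change -0.26, SE 0.24, adjusted p = 0.808 (edgeR).

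Other genes of fatty acid oxidation were taken as a list of 41, of which 39 were tested. In CLP versus sham, 2 fell (1.14% of all genes) and 0 rose, with a median log2 fold change of -0.31. Without CLP+DCA replicate 3, edgeR called 1 higher and 13 lower, against 12.2% and 11.5% of all genes. DESeq2 on the 8 mice compared called 1 of 40 higher and 16 lower, against 11.9% and 11.5% of all genes. The 2 called on all mice were Nudt7, an enzyme that breaks down CoA in peroxisomes, which had 799.7 ± 177 CPM in the sham mice and 191 ± 104 CPM in the CLP mice (mean and SD, n = 4; log2 fold change -2.07, SE 0.36, adjusted p = 0.0254, edgeR), and Pccb, a subunit of propionyl-CoA carboxylase, at 154 ± 4.65 CPM and 110.0 ± 7.76 CPM (log2 fold change -0.49, SE 0.11, adjusted p = 0.0463). In CLP+DCA, Nudt7 was at 439 ± 91.8 CPM, which lay between these levels (log2 fold change 1.20, SE 0.35, adjusted p = 0.327 for CLP+DCA versus CLP).

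Of 29 tested targets and partners of PPARα, 0 passed the FDR in CLP versus sham by edgeR, and 8 were higher and 2 lower at an unadjusted p under 0.05 (15.5% and 13.1% of all genes). Without CLP+DCA replicate 3, 6 were called higher and 2 lower (12.2% and 11.5% of all genes), as by DESeq2 on all 12 mice (7.12% and 5.92% of all genes). Their median log2 fold change was 0.40, while that of Ppara itself was -0.83. The smallest p-values were those of Angptl4, an inhibitor of lipoprotein lipase (log2 fold change 1.25, SE 0.30, adjusted p = 0.0516), and Cyp4a31, a fatty acid hydroxylase (log2 fold change 1.95, SE 0.48, adjusted p = 0.0527). Angptl4 was at 65.3 ± 26.0 CPM in the sham mice, 155 ± 44.7 CPM in the CLP mice and 89.7 ± 18.4 CPM in the CLP+DCA mice. Of 15 peroxisome assembly genes, 0 passed the FDR by edgeR, and 1 was higher and 2 lower at an unadjusted p under 0.05 (15.5% and 13.1% of all genes). Without CLP+DCA replicate 3, 3 were called lower (11.5% of all genes), and 1 by DESeq2 on all 12 mice (5.92% of all genes). The lowest p-values were those of Pex6 (log2 fold change -0.42, SE 0.14, adjusted p = 0.0901) and Pex16 (log2 fold change -0.42, SE 0.17, adjusted p = 0.132), which serve the import and membrane assembly of peroxisomes, with a median over the list of -0.05.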

How the data were processed

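RNA of 12 whole livers was sequenced from poly(A)-enriched libraries. Per the submitters' processing notes and the study's methods, the authors used STAR 2.5 for alignment to mm10 and featureCounts (Subread 1.5.0-p1) for counting on genes. The deposited values are unnormalized read counts per gene, with NCBI Gene identifiers. The gene annotation, the treatment of reads that match several genes and the strand setting are not given in the sources used here. The members, their compartments, the lists and the tests were chosen with earlier results of these data known.

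Genes with low counts were removed by filterByExpr (minimum count 10), and the rest were normalized by TMM and fitted for all 12 mice with a robust quasi-likelihood model (R 4.3.3, edgeR 4.0.16). Contrasts were adjusted by Benjamini-Hochberg over 13190 genes at an FDR of 0.05. The SE is the size of the log2 fold change divided by the square root of F. Log2 CPM had a prior count of 2. Depth was 24436513 to 44266819 reads per mouse; counting error alone understates the error, as reads are not separate molecules. On simulated counts of 13186 genes for 12 mice, CLP versus sham, edgeR recovered 150 of 200 changed genes, with 6 wrong calls. Of these 150, 67 changed 2-fold and 83 changed 4-fold. On the 8 mice compared, wrong calls were 5 by edgeR (143 recovered) and 31 by DESeq2 (164 recovered). On all 12 mice they were 35 by DESeq2 (165 recovered) and 4 by voom with sample quality weights (146 recovered). CLP+DCA mice were simulated at the sham level, and no mouse was set apart as CLP+DCA replicate 3 is in the data. DESeq2 1.42.0, limma 3.58.1 (voom) and other settings served as alternatives. No libraries were alike within counting noise (chi-square per degree of freedom of at least 24.8).

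Values of each mouse are given for the 6 members with the smallest p in each contrast, Ppara and Cpt1a; members of other lists are named if past the FDR or among the 2 smallest p in CLP versus sham. Outside this rule, Hadh, Acaa1a and Acaa1b were chosen after their values were seen. Transcript lengths, windows and coding sequences are those of the longest principal transcript in GENCODE vM21, and promoter windows are from RefSeq.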

Additional observations from a re-analysis of the deposited data

Results flagged for a closer look

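The levels of the 33 members, the median of each organelle's members and the ratios of paired enzymes gave 120 sets of 4 mice in the 3 groups, of which 10 held a mouse far from the other 3 by Dixon's criterion, where chance gives about 6. CLP+DCA replicate 3 was low for Hadh (111 CPM, others 254 to 294 CPM) and Echs1 (118 CPM, others 209 to 216 CPM). It was also low for the log2 ratio of Decr2 over Decr1 (-2.45, others -0.18 to 0.15) and high for those of Eci2 over Eci1 (2.85, others 1.31 to 1.36) and Crot over Cpt2 (2.25, others 2.09 to 2.10). Sham replicate 2 was high for Etfdh (216 CPM, others 165 to 172 CPM) and low for the log2 ratio of Ehhadh over Hadha (-1.25, others -0.79 to -0.76). CLP replicate 3 was high for Crot (845 CPM, others 599 to 628 CPM) and Amacr (129 CPM, others 103 to 105 CPM). CLP replicate 1 was low for Crat (92.1 CPM, others 111 to 113 CPM), in the group where this gene was highest.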

How the results depend on the processing

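In CLP versus sham, 1 member was called. The share of all genes called in this fit was 2.78%. The count was 6 with edgeR on the 8 mice compared and 9 with DESeq2 on them (18.3% and 23.3% of all genes). With DESeq2 on all 12 mice it was 6 and with voom and sample quality weights 11 (13.0% and 26.2% of all genes). The count was 0 at an FDR of 0.01 and 6 at an FDR of 0.1. No share of all genes is given here for these thresholds, so that these counts cannot be read as a result about the members. Leaving out each mouse in turn gave 0 to 8 calls, with 8 without CLP+DCA replicate 3, while 0.0749% to 23.8% of all genes were called. In CLP+DCA versus CLP, DESeq2 on the 8 mice and on all 12 mice called 1 member (0.604% and 0.815% of all genes), voom called 5 (Hadha, Hadhb, Etfdh, Acox2 and Crat, all lower; 10.2% of all genes), and leaving out each mouse gave 0 to 1, with 1 without CLP+DCA replicate 3 (4.64% of all genes). In CLP+DCA versus sham the count was 0 in every setting run, where at an FDR of 0.05 up to 3.76% of all genes were called (voom). Replicate numbers did not pair the mice (same-numbered mice correlated at -0.46 to 0.55 across genes). The number as a block changed no call of a member, though far fewer genes were called in CLP versus sham. It gave 1 call there (0.349% of all genes), with a log2 fold change of 1.32 for Crat. It gave 0 calls in CLP+DCA versus sham (0% of all genes) and in CLP+DCA versus CLP (0.0303% of all genes). Cpt1a, near 0 in all comparisons, changed sign. In CLP versus sham it was at 0.00566 with upper quartile scaling, 0.11 with library sizes without the acute phase list and -0.0740 to 0.0513 when each mouse was left out. In CLP+DCA versus sham it was at -0.00169 by library size alone, -0.0133 with voom and -0.19 to 0.17 when each mouse was left out. In CLP+DCA versus CLP it was at -0.0093 with voom and -0.17 to 0.19 when each mouse was left out. Library size alone moved the median log2 fold change of all genes to -0.15 in CLP versus sham and 0.12 in CLP+DCA versus CLP, and library sizes without the acute phase list to 0.15 in CLP versus sham and 0.13 in CLP+DCA versus sham. With these scalings and other tests, medians in CLP versus sham ran from -0.21 to 0.08 over mitochondrial and from -0.18 to 0.11 over peroxisomal members, so that their sign is not settled. The cause of the other differences was not tested. With at least 417 reads on each member in each mouse, the spread between mice and not the depth limits these values.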

Other observations

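Among the 4 sham mice, 25 of 33 members were highest in replicate 2 (21.5% of all genes) and 21 were lowest in replicate 4 (27.3% of all genes). Among CLP mice, 29 members were highest in replicate 3 (32.0% of all genes), while 19 were lowest in replicate 2 (31.2% of all genes) and 11 in replicate 1 (19.6% of all genes). Among CLP+DCA mice, 20 were lowest and 12 highest in replicate 3 (39.5% and 39.2% of all genes), and 17 were highest in replicate 4 (24.9% of all genes). Members share the scaling of a library, so that these counts are not independent. The range of log2 CPM was wider in CLP than in sham for 24 of 33 members (66.0% of all genes) and wider in CLP+DCA than in sham for 25 (77.8% of all genes).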
